A study of Mus musculus with 18 samples.

Results

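The genes described here are the neighbours of Trex1 on mouse chromosome 9. They were taken as every gene of either deposited results table that overlaps chromosome 9 from 99.06 to 119.06 Mb (GRCm38, GENCODE release M21), which is 10 Mb to each side of Trex1. Trex1 itself and 4 other genes of the interval, Uba7, Ltf, Camp and Ngp, were left out by that rule. This gave 267 genes of 22400 listed in either table, 199 of them protein coding and 68 of other types. Of these, 188 were listed for bone marrow, 262 for spleen and 183 for both. The start of 181 lies at a lower coordinate than the start of Trex1 (called the lower side below), and that of 86 at a higher one (the higher side). The outermost starts are 9.92 Mb to the lower and 9.99 Mb to the higher side.

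RNA was measured in dissociated cells of C57BL/6 mice by QuantSeq, which reads each transcript near its polyadenylated end. Bone marrow was compared between 4 libraries of Cgas-/- mice and 4 of Trex1-/-;Sting1gt/gt mice, called dKO, which lack the exonuclease TREX1 and carry the goldenticket allele of Sting1. Spleen was compared between 5 libraries of dKO mice given Cgas-/- marrow and 5 of dKO mice given dKO marrow, all lethally irradiated and taken 12 weeks after transplantation. All recipients were dKO, so whatever host cells a spleen still held were dKO in both groups. Cgas-/- animals carry Trex1 and Sting1, so in the marrow of both comparisons an unmodified Trex1 locus is set against a modified one and a modified Cgas locus against an unmodified one. Cgas lies on the same chromosome, 30.6 Mb away. No source used here gives ages, the origin of each allele or the number of backcrosses. The labels do not say that each library came from another mouse, so a p-value speaks only for the spread among the libraries, which may be technical.

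Genes on 1 chromosome are inherited together unless a crossover falls between them. When an allele is made in 1 mouse strain and crossed into another, the DNA that flanks it travels with it, and the flanking stretch shortens only where crossovers happen to fall, often by unlike amounts on its sides. Neighbours of a targeted gene can therefore carry other sequence variants than the control chromosome, and an expression difference close to a targeted locus is a known caution in the reading of knockout comparisons. TREX1 degrades DNA in the cytosol, cGAS senses such DNA and makes the messenger cGAMP, and STING is the receptor of cGAMP.

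Values are read from the authors' deposited tables of DESeq2 results, 1 for each tissue, with a log2 fold change, its standard error (after ±) and an adjusted p, and no value per library. A positive log2 fold change means a higher level with Cgas-/- cells than with dKO cells, and a gene is called where its adjusted p is below 0.05. A group mean is given where it helps. It was computed from the mean and the fold change of the authors' deposited table for groups of equal size, in normalized counts, and is approximate. Means were normalized separately in each tissue and are not compared between them.

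The genotypes were read first at the targeted genes. Trex1, on the minus strand at 109057933 to 109059734, was 2.73-fold higher in Cgas-/- marrow (1.45 ± 0.178) and 6.55-fold higher in spleens with Cgas-/- marrow (2.71 ± 0.199) by the authors' deposited tables. Cgas was lower in both, at -1.13 ± 0.155 and -0.92 ± 0.217 by the authors' deposited tables. Tags outside the deleted parts can still be counted, and in bulk tissue fewer cells of a type cannot be told apart from less RNA per cell. Cell markers moved in these libraries too. In bone marrow all 6 erythroid markers were above 0, with a summed mean of 51322 against 27525 normalized counts and 1 call by the authors' deposited table, and all 3 monocyte markers were below 0 with 2 calls. In spleen none of the 6 erythroid markers was above 0, with summed means of 9167 and 14123. No erythroid or monocyte marker was called by the authors' deposited table for spleen. Of the 5 neutrophil markers, 1 was above 0 in each tissue. No neutrophil, B cell, T cell or plasma cell marker was called in either tissue. All 5 genes of the Y chromosome listed for spleen were called lower, and the 1 listed for bone marrow was not called. The part of cell composition and of sex in the members' values was not tested.

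Sequences are shown for Rpl29, whose close copies were also called. Rpl29, the gene with the smallest adjusted p among the members in both tissues, encodes a protein of the large ribosomal subunit and has 115 pseudogene copies (matched over at least 80% of their length, nearly all annotated as processed, that is intron-less) among the GENCODE M21 pseudogene transcripts. The 3 copies Gm13841, Gm8210 and Gm14036 were themselves called in bone marrow. They differ from the Rpl29 coding sequence of 483 bases at 3 positions each, counted from the A of the start codon. Gm14036 is annotated with 480 bases and lacks the first codon, which was not compared. Gm13841 and Gm8210 differ by C72A, C300T and T423C, and Gm14036 by G231A, C300T and T423C, with the Rpl29 base first. Each change is at the last base of a codon and leaves the amino acid as it is. The stretches around these positions are from the GENCODE M21 transcripts of GRCm38, 5′ to 3′ in the sense of Rpl29, with the differing base in capitals.
Rpl29, bases 52 to 92: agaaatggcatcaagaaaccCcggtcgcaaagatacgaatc
Gm13841 and Gm8210, bases 52 to 92: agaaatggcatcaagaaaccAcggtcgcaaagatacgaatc
Rpl29, bases 211 to 251: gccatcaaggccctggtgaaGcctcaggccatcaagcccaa
Gm14036, bases 211 to 251: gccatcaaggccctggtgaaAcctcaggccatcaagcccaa
Rpl29, bases 280 to 320: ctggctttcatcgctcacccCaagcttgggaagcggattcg
Gm13841, Gm8210 and Gm14036, bases 280 to 320: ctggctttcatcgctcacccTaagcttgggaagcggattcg
Rpl29, bases 403 to 443: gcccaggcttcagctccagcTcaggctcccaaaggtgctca
Gm13841, Gm8210 and Gm14036, bases 403 to 443: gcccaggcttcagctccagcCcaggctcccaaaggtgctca

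In bone marrow, 13 of the 188 listed members were called, 8 higher and 5 lower in Cgas-/- cells. That is 6.91% of the members, against 0.534% of all 14423 genes by the authors' deposited table (DESeq2 adjusted p below 0.05). By direction, 0.173% of all genes were called higher and 0.361% lower. In spleen, 15 of 262 listed members were called, 10 higher and 5 lower, which is 5.73% against 0.133% of all 21830 genes by the authors' deposited table. There, 0.0550% of all genes were called higher and 0.0779% lower. Members are therefore 13 of 77 calls in bone marrow and 15 of 29 in spleen. At an unadjusted p below 0.05, 44 members (23.4%) passed in bone marrow against 8.85% of all genes, and 38 (14.5%) in spleen against 3.02%.

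The members' changes were larger in size than those of all genes, while their direction was balanced. The median absolute log2 fold change of the members was 0.231 in bone marrow and 0.240 in spleen, against 0.144 and 0.175 over all genes of the authors' deposited tables. The median signed value was close to 0 in both tissues, with 100 members above 0 and 88 below in bone marrow and 133 above and 129 below in spleen. Members with low counts have wide errors in the spleen table, which lists genes with smaller means than the table for bone marrow. Among members with a mean of at least 20 normalized counts, 12 of 154 (7.79%) were called in bone marrow and 14 of 139 (10.1%) in spleen. Of all genes at that mean, 0.614% of 12045 were called in bone marrow and 0.234% of 11118 in spleen.

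The called members fell in a part of the interval. Across both tissues 21 were called, 16 on the lower side of Trex1 and 5 on the higher side, where the members themselves were 181 and 86. The outermost were Bfsp2, 5.58 Mb to the lower side, and Epm2aip1, 2.21 Mb to the higher side, so all calls fell in a stretch of 7.79 Mb. The outermost calls set the ends of this stretch, so by construction no member beyond it was called. Beyond Epm2aip1 lie 27 members listed for bone marrow and 41 listed for spleen, and beyond Bfsp2 on the other side 29 and 43. With 0.534% and 0.133% of all genes called, so few genes could hold no call in any case, and no edge is read from their lack of calls. The members in the stretch were 132 in bone marrow and 178 in spleen. On the remainder of chromosome 9, 3 of 626 genes were called in bone marrow and 1 of 998, Cgas, in spleen.

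**Figure D1:**
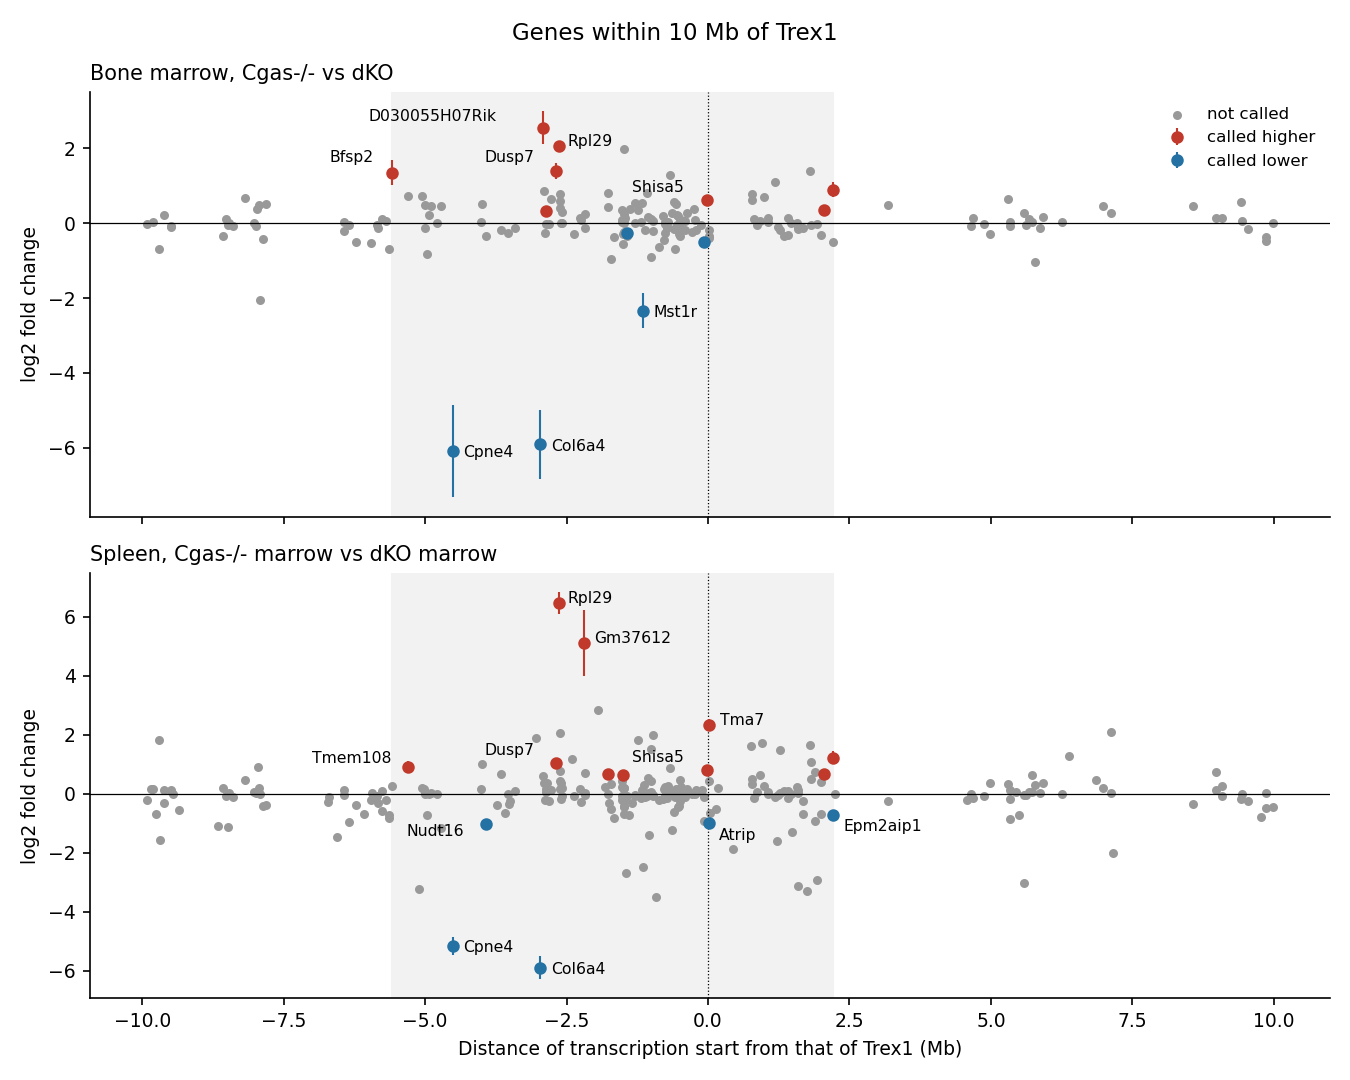
Log2 fold change (Cgas-/- over dKO) of each listed member against the distance of its start from the start of Trex1 in Mb, for bone marrow (top) and spleen (bottom), from the authors' deposited tables. Called members are red (higher) or blue (lower) with standard errors, others are grey without them, and the shaded stretch runs from Bfsp2 to Epm2aip1 and holds every call.

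By distance, the share of members with an unadjusted p below 0.05 was above the value for all genes in most bins of both tissues. On the lower side of Trex1 in bone marrow it was 24.6% of 65 members within 2 Mb, 31.4% of 35 from 2 to 5 Mb and 15.6% of 32 from 5 to 10 Mb. On the higher side it was 19.2% of 26, 37.5% of 8 and 18.2% of 22. No trend toward Trex1 is read from these values: the bin with the largest share on the higher side holds 8 genes, and the innermost bin on the lower side had a smaller share than the next. In spleen the shares on the lower side were 14.6% of 82, 21.7% of 46 and 8.33% of 48, and on the higher side 19% of 42, 30% of 10 and 2.94% of 34. The last of these, from 5 to 10 Mb on the higher side, was the 1 bin at the level of all genes (3.02%). Outside the interval, from 10 to 20 Mb away, the shares were 5% on the lower and 7.69% on the higher side in bone marrow, and 1.47% and 5.66% in spleen.

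**Figure D2:**
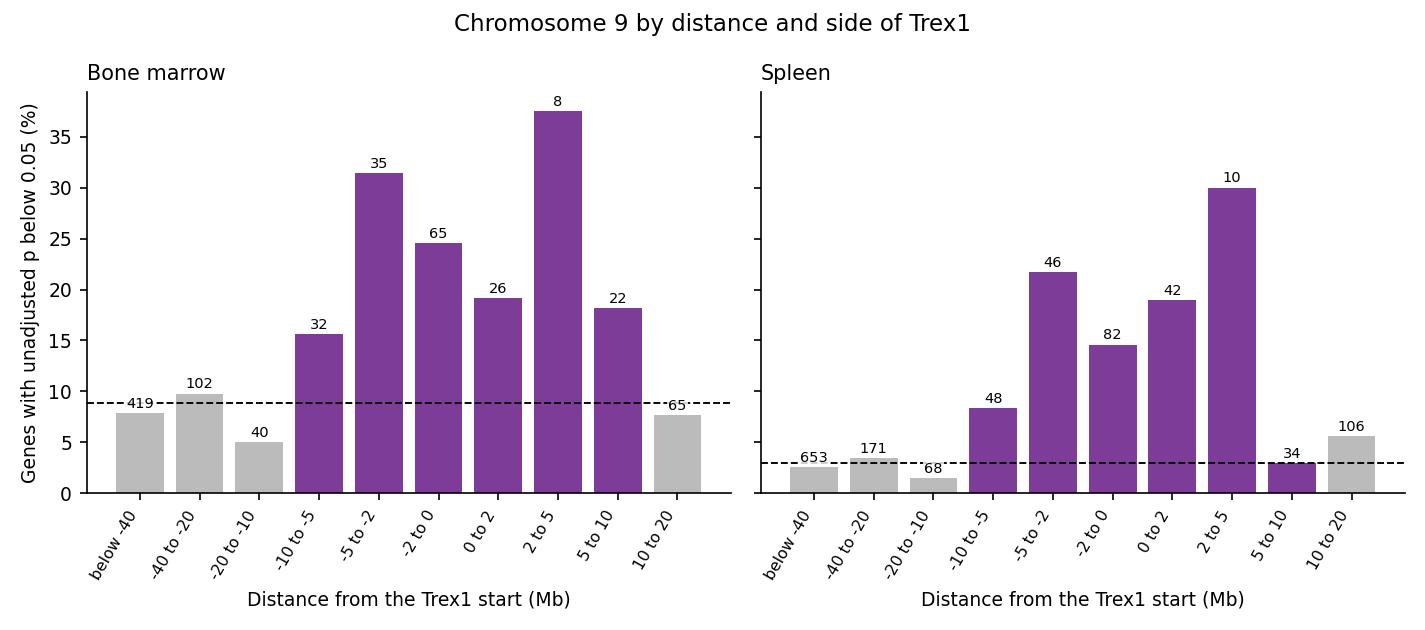
Share of genes with an unadjusted p below 0.05 (vertical axis, %) in bins of distance from the start of Trex1 in Mb along chromosome 9, negative on the lower side, for bone marrow (left) and spleen (right). Purple bars are the members, grey bars other genes of the chromosome, the number above a bar is its count of genes, and the dashed line is the share over all genes (8.85% and 3.02%).

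The interval around Cgas gave other values, although the Cgas locus differs between the same groups. Of 94 genes listed for bone marrow within 10 Mb of Cgas, itself left out, none was called by the authors' deposited table, and 7.45% had an unadjusted p below 0.05, against 8.85% of all genes. Of 163 listed for spleen none was called, and 2.45% had an unadjusted p below 0.05, against 3.02%. The difference between the intervals was not tested, since neighbouring genes are not replicates.

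Of the 21 called members, 7 were called in both tissues, all 7 in the same direction. They are 53.8% of those called in bone marrow and 46.7% of those called in spleen. The number of all genes called in both tissues was not counted, so these shares have no value over all genes beside them. At an unadjusted p below 0.05 in both tissues and the same direction, the shares were 7.65% of the 183 members listed in both and 0.354% of all genes. The comparisons share no library. Dusp7, Rpl29, Shisa5 and Lrrfip2 were among the 5 higher in both, and Cpne4 and Col6a4 lower in both. Of the 20 called members listed in both tables, 18 had the same sign in both, and the others were Tma7 and Rassf1. No like share was computed for called genes outside the interval.

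**Figure D3:**
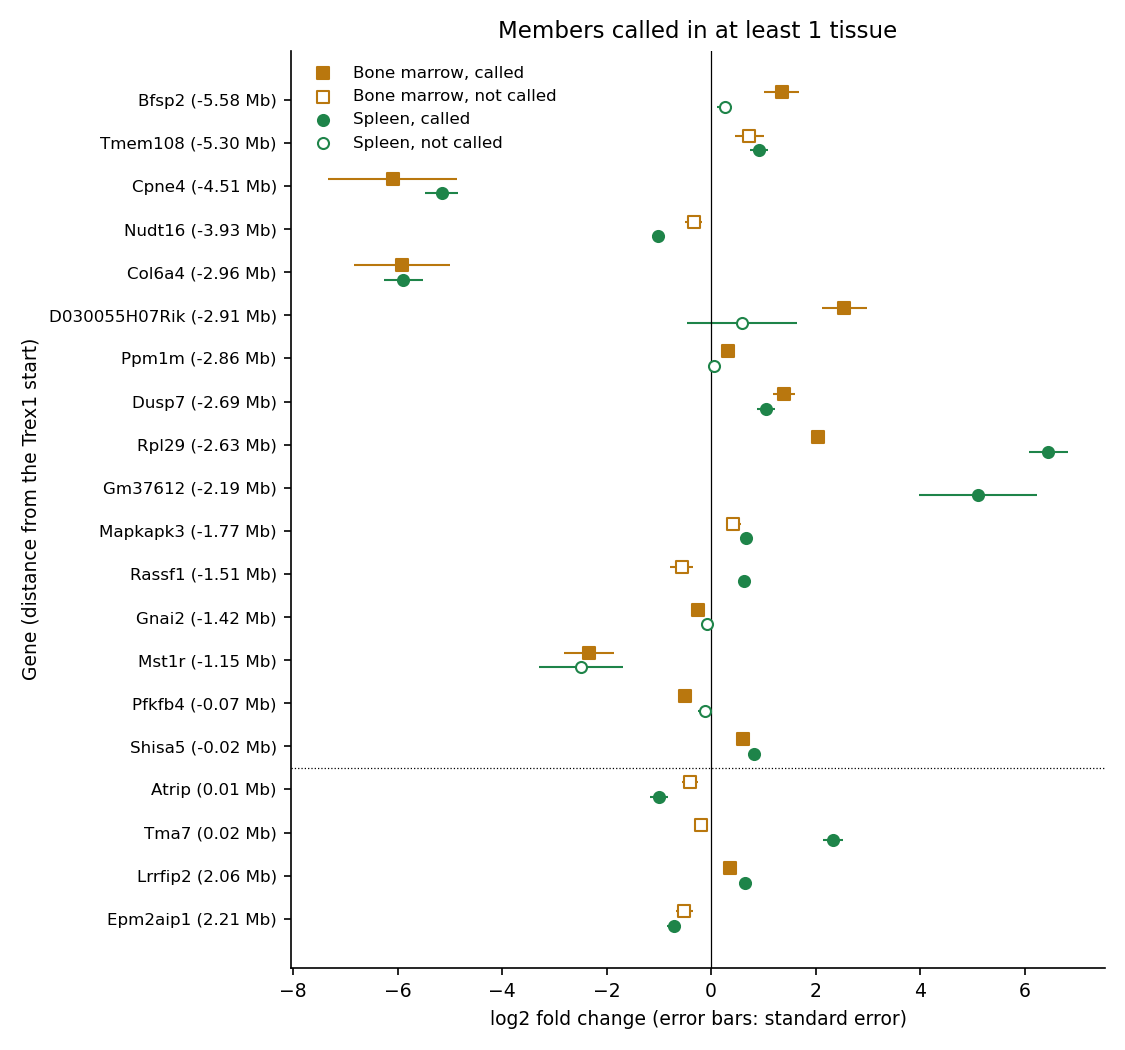
Log2 fold change (horizontal axis, Cgas-/- over dKO) with its standard error for 20 of the 21 members called in at least 1 tissue, ordered along the chromosome with the distance from the start of Trex1 in brackets. Squares are bone marrow, circles spleen, filled symbols passed a DESeq2 adjusted p of 0.05, and the dotted line marks Trex1. Cpne4 and Col6a4 lie far below 0 in both tissues, and Rpl29 far above 0 in spleen.

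The largest falls were in genes of the matrix and of membrane binding. Col6a4, which encodes a chain of collagen VI (105989454 to 106096783, minus strand), had a computed mean of 0.773 normalized counts in Cgas-/- marrow against 46.6 in dKO marrow. In spleen these means were 2.93 and 174. Reads of Col6a4 thus came almost wholly from the dKO side in both tissues, with log2 fold changes of -5.91 ± 0.915 (DESeq2 adjusted p = 1.36e-07) and -5.89 ± 0.374 (DESeq2 adjusted p = 3.99e-52) by the authors' deposited tables. Cpne4, a copine that binds membrane lipids in the presence of calcium (104547286 to 105034544, plus strand), showed the same pattern. Its computed means in spleen were 5.07 with Cgas-/- marrow and 182 with dKO marrow. The authors' deposited tables gave -6.09 ± 1.23 in bone marrow (DESeq2 adjusted p = 6.72e-04) and -5.16 ± 0.311 in spleen (DESeq2 adjusted p = 8.18e-58). Fitted folds of this size against a mean of under 1 normalized count, as in Cgas-/- marrow, give no upper bound on the true fold. Cpne4 overlaps another annotated gene, Gm23391, on its strand, and reads of such pairs cannot be told apart.

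Among genes of translation, Rpl29 (106429454 to 106431568, plus strand) had computed means of 2525 in Cgas-/- marrow and 610 in dKO marrow. In spleen the means were 285 and 3.25. The log2 fold changes were 2.05 ± 0.0874 (DESeq2 adjusted p = 1.25e-117) and 6.45 ± 0.373 (DESeq2 adjusted p = 6.59e-63) by the authors' deposited tables. Rpl29 was thus higher in both and further apart in spleen, where its level without Cgas-/- marrow was close to 0. The difference of the changes, spleen minus bone marrow, was 4.40 ± 0.383 (z test on the deposited estimates, adjusted p = 8.10e-27). Tma7, a translation machinery associated gene that starts 0.02 Mb from Trex1, was called in spleen, at 2.33 ± 0.191 by the authors' deposited table (DESeq2 adjusted p = 1.43e-30), with computed means of 152 and 30.3. In bone marrow it had -0.19 ± 0.0830 (DESeq2 adjusted p = 0.438, authors' deposited table), with computed means of 2098 and 2389. The difference for Tma7 was 2.52 ± 0.208 (z test, adjusted p = 2.01e-29). Of the 8 listed members in a list of translation genes, 1 was called in bone marrow, Rpl29, and 2 in spleen, Rpl29 and Tma7, all higher. The median log2 fold change of the list was 0.06 in bone marrow and 0.17 in spleen, and 6 and 8 of the 8 were above 0. Over the members, 6.91% and 5.73% were called, and 100 of 188 and 133 of 262 were above 0. Over all genes, 0.534% and 0.133% were called. The calls of this list are 2 genes, and no theme of translation is read from them.

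The processed copies of Rpl29 whose sequence is shown above moved against it in bone marrow. Of its 115 copies, 5 were listed there, and 3 were called, all lower in Cgas-/- cells. Gm8210 on chromosome 1 (43189156 to 43189638) and Gm13841 on chromosome 5 (115801677 to 115802159) shared all values, -10.21 ± 1.04 by the authors' deposited table (DESeq2 adjusted p = 1.96e-19). Gm14036 on chromosome 2 (134803949 to 134804428) had -8.11 ± 1.12 by the authors' deposited table (DESeq2 adjusted p = 7.88e-10). These 3 were 99.4% identical to Rpl29 over their length. The other listed copies, 4931440P22Rik at 93.4% identity and Gm12987 at 93.0%, had -0.12 ± 0.287 and -0.05 ± 0.655 by the authors' deposited table and were not called. In dKO marrow the computed means were 225 for each of Gm8210 and Gm13841 and 52.0 for Gm14036, and in Cgas-/- marrow each was below 1. Summed over Rpl29 and these 3 copies, the means were 2526 and 1111 normalized counts, a 2.27-fold difference in place of 4.14-fold for Rpl29 alone, and 2.85-fold if the pair with shared values is counted once. That sum was added after the values had been seen and has no test. In spleen, 14 copies of Rpl29 were listed, none of the 3 among them, and none was called by the authors' deposited table (none at an unadjusted p below 0.05). For Tma7, 0 of 9 copies were listed for bone marrow and 3 for spleen, none called, with 1 at an unadjusted p below 0.05. Reads of near-identical copies can be split by counting, so the size of the Rpl29 change is uncertain, as is its difference between tissues.

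**Figure D4:**
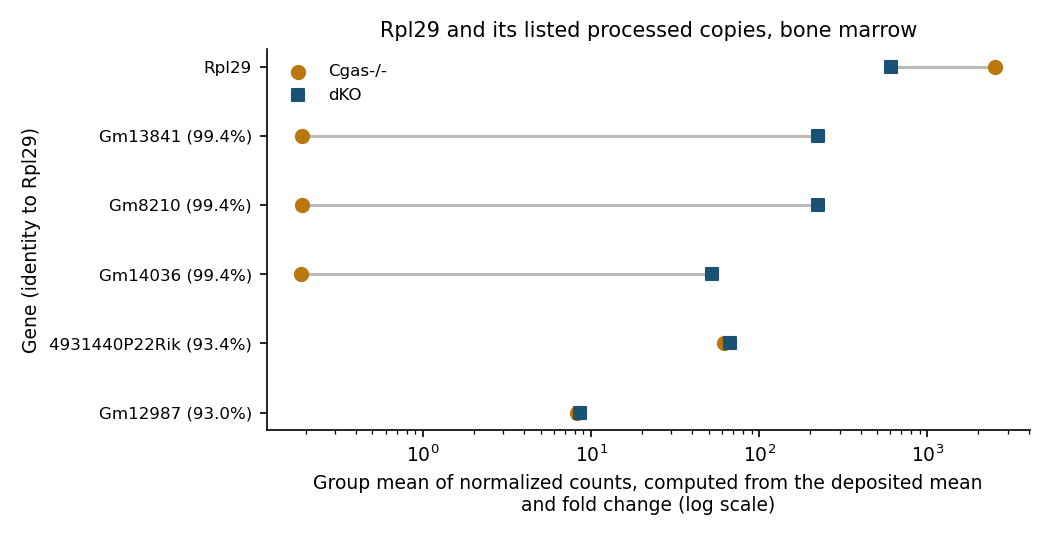
Computed group means of normalized counts in bone marrow (horizontal log axis) for Rpl29 and its 5 listed processed copies, with the identity of each copy to Rpl29 in brackets. Circles are Cgas-/- and squares dKO. Rpl29 is higher in Cgas-/- cells while the 3 copies of 99.4% identity are near 0 there, where points below 1 are extrapolated from the fitted fold, and the copies at 93.4% and 93.0% nearly coincide between groups.

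Signalling genes were called in both directions. Dusp7, a phosphatase of MAP kinases (106368632 to 106375724, plus strand), starts 60822 bases before Rpl29 on the same strand. Its computed means were 187 and 71.0 in bone marrow and 95.1 and 46.0 in spleen, Cgas-/- first. It rose by 1.40 ± 0.211 in bone marrow (DESeq2 adjusted p = 4.41e-08) and 1.05 ± 0.169 in spleen (DESeq2 adjusted p = 6.47e-07) by the authors' deposited tables. Mapkapk3, a kinase downstream of p38, rose in spleen at 0.66 ± 0.117 (DESeq2 adjusted p = 1.39e-05) and had 0.42 ± 0.144 in bone marrow (DESeq2 adjusted p = 0.210) by the authors' deposited tables. Gnai2, an inhibitory G protein alpha subunit, fell in bone marrow at -0.26 ± 0.0673 (DESeq2 adjusted p = 0.0311) by the authors' deposited table, with computed means of 14572 and 17428, and had -0.08 ± 0.0586 in spleen. Gnai2 is the most abundant of the called members in bone marrow, and its change is among the smallest called.

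Rassf1, a Ras association domain gene known as a tumour suppressor (107551555 to 107562267, plus strand), was the third member whose change differed between tissues. In spleen it rose by 0.63 ± 0.108 (DESeq2 adjusted p = 4.64e-06) by the authors' deposited table, with computed means of 412 and 265. In bone marrow it had -0.56 ± 0.219 (DESeq2 adjusted p = 0.316, authors' deposited table), with computed means of 92.5 and 136. The difference was 1.19 ± 0.244 (z test, adjusted p = 0.00230). Rpl29, Tma7 and Rassf1 were the 3 members whose difference passed, where 0.0577% of the 13853 genes listed in both tables did. Trex1 passed too, at 1.26 ± 0.267 (z test, adjusted p = 0.00434). Of the 19 listed members of the list of signalling enzymes and GTPases, 1 was called higher and 1 lower in bone marrow, and 3 higher in spleen. The list's median log2 fold change was 0.03 and 0.04. The shares called in bone marrow and spleen were 0.534% and 0.133% over all genes, and 6.91% and 5.73% over the members.

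On the higher side, about 2 Mb from Trex1, lie the outermost calls. Epm2aip1, which encodes a protein that binds laforin (111271929 to 111279093, plus strand), fell in spleen at -0.71 ± 0.129 (DESeq2 adjusted p = 4.33e-05) and had -0.51 ± 0.164 in bone marrow (DESeq2 adjusted p = 0.149) by the authors' deposited tables. Its computed means in spleen were 195 and 319. Lrrfip2, which encodes a leucine-rich repeat Flightless-interacting protein (111117592 to 111225668, plus strand), had computed means of 690 and 537 in bone marrow and 162 and 103 in spleen. It rose by 0.36 ± 0.0983 (DESeq2 adjusted p = 0.0459) and 0.66 ± 0.128 (DESeq2 adjusted p = 2.64e-04) by the authors' deposited tables. Calls at this distance thus went in both directions.

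The immediate neighbours of Trex1 did not move as 1 block. Shisa5, an endoplasmic reticulum protein linked to apoptosis (109038565 to 109057777, plus strand), ends 156 bases from the end of Trex1 on the facing strand. Its computed means were 1447 and 946 in bone marrow and 11523 and 6565 in spleen, and it rose by 0.61 ± 0.0841 (DESeq2 adjusted p = 6.40e-10) and 0.81 ± 0.0746 (DESeq2 adjusted p = 4.78e-24) by the authors' deposited tables. Atrip, the partner of the checkpoint kinase ATR (109057933 to 109074124, minus strand), overlaps Trex1 on its strand, and 1 of its annotated transcripts, of the nonsense-mediated decay class, ends at the same base as Trex1. Atrip fell in spleen at -0.998 ± 0.170 (DESeq2 adjusted p = 4.64e-06) and had -0.40 ± 0.156 in bone marrow (DESeq2 adjusted p = 0.314) by the authors' deposited tables, opposite in sign to Trex1. Reads of Atrip and Trex1 near that end cannot be told apart. Pfkfb4, which makes and breaks down the glycolytic regulator fructose-2,6-bisphosphate, fell in bone marrow at -0.49 ± 0.106 (DESeq2 adjusted p = 0.00193) and had -0.12 ± 0.127 in spleen by the authors' deposited tables. The authors counted tags with a strand setting that no source used here gives, so facing 3' ends such as those of Shisa5 and Trex1 could share tags if strand was not used.

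The other nearest listed genes were not called. The respiratory chain gene Uqcrc1, 0.12 Mb to the lower side, had -0.05 ± 0.107 in bone marrow and 0.06 ± 0.0874 in spleen by the authors' deposited tables, both with computed group means of over 300 counts. Ccdc51, which starts 0.02 Mb to the higher side beside Tma7, had -0.35 ± 0.335 and 0.43 ± 0.207 by the authors' deposited tables. Col7a1, Ucn2, Plxnb1 and Fbxw13 were listed for spleen only, with log2 fold changes of 0.13 ± 0.629, -0.91 ± 1.77, -0.67 ± 0.613 and -0.50 ± 0.645 by the authors' deposited table. Within 0.14 Mb of Trex1, called genes thus stood among genes that were not called, and the wide errors of the low genes do not show that these were alike.

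The remaining called members lie on the lower side. Mst1r, the receptor tyrosine kinase also called RON (107906873 to 107920383, plus strand), had computed means of 10.3 and 51.8 in bone marrow and fell by 2.34 ± 0.472 on the log2 scale (DESeq2 adjusted p = 6.72e-04, authors' deposited table). In spleen it had -2.50 ± 0.802 by the authors' deposited table (DESeq2 adjusted p = 0.710), a like value with a wider error and computed means of 1.26 and 7.13. Nudt16, a hydrolase that removes the caps of small nucleolar RNA, fell in spleen at -1.02 ± 0.114 (DESeq2 adjusted p = 5.98e-16) and had -0.33 ± 0.167 in bone marrow (DESeq2 adjusted p = 0.541) by the authors' deposited tables. Its computed means in spleen were 112 and 227. Bfsp2, a gene of the lens beaded filament, rose in bone marrow at 1.35 ± 0.330 (DESeq2 adjusted p = 0.0143) and had 0.26 ± 0.141 in spleen by the authors' deposited tables. Tmem108, its neighbour, rose in spleen at 0.92 ± 0.179 (DESeq2 adjusted p = 2.44e-04) and had 0.73 ± 0.269 in bone marrow (DESeq2 adjusted p = 0.273) by the authors' deposited tables. Ppm1m, a metal-dependent protein phosphatase, rose in bone marrow at 0.31 ± 0.0837 (DESeq2 adjusted p = 0.0370) and had 0.05 ± 0.0934 in spleen by the authors' deposited tables.

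The called members that are not protein coding were 2. D030055H07Rik is annotated as antisense and rose in bone marrow at 2.55 ± 0.436 (DESeq2 adjusted p = 5.47e-06, authors' deposited table), with computed means of 50.5 and 8.60. It starts 51904 bases from the start of Col6a4, which fell, and in spleen it had 0.59 ± 1.05 by the authors' deposited table. Gm37612, annotated inside an intron of Dcaf1 on the same strand, was listed for spleen only, at 5.11 ± 1.13 by the authors' deposited table (DESeq2 adjusted p = 0.00486), with computed means of 5.24 and below 1. Tags of these genes cannot be told apart from tags of the genes they overlap where strand does not separate them. In all, 7 of the 21 called members overlap another annotated gene on their strand, as do 73 of the 267 members.

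The lists of other functions are read against the calls over all genes, 0.534% in bone marrow and 0.133% in spleen, and over the members, 6.91% and 5.73%. The lists are broad and were drawn up with earlier results of these data known, so their counts of calls depend on that assignment. Of the list of collagen, matrix and cytoskeleton genes, which also holds the copine gene Cpne4, 15 were listed for bone marrow and 17 for spleen. Bfsp2 was called higher and Cpne4 and Col6a4 lower in bone marrow, and the last 2 in spleen, with 9 of 15 and 12 of 17 members below 0. Of surface receptor and adhesion genes, Mst1r was the 1 call of 13 in bone marrow and none of 20 was called in spleen. The smallest p of that list in spleen was that of Sema3b, a secreted semaphorin, at -2.70 ± 0.799 by the authors' deposited table (DESeq2 adjusted p = 0.403). Of the list of metabolic and mitochondrial genes, 1 of 22 was called lower in bone marrow, Pfkfb4. In spleen 2 of 22 were called lower, Nudt16 and Epm2aip1, which are described above by other functions. Tmie, a gene for an inner ear membrane protein named because it stood next outside the threshold in spleen, had 1.09 ± 0.289 by the authors' deposited table (DESeq2 adjusted p = 0.0970). Of trafficking, ubiquitin and lysosome genes, Shisa5 was the 1 call in each tissue. The deubiquitinase gene Usp19 of that list had 0.51 ± 0.144 in bone marrow (DESeq2 adjusted p = 0.0693) and 0.17 ± 0.156 in spleen by the authors' deposited tables. A list of neighbours with immune roles held 1 call higher and 2 lower among 16 in bone marrow, and 1 higher among 20 in spleen, and its calls, Shisa5, Gnai2 and Mst1r, are also in other lists. The median log2 fold changes of these lists ran from -0.21 to 0.05, against 0.00 and -0.03 over all genes in bone marrow and spleen.

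**Figure D5:**
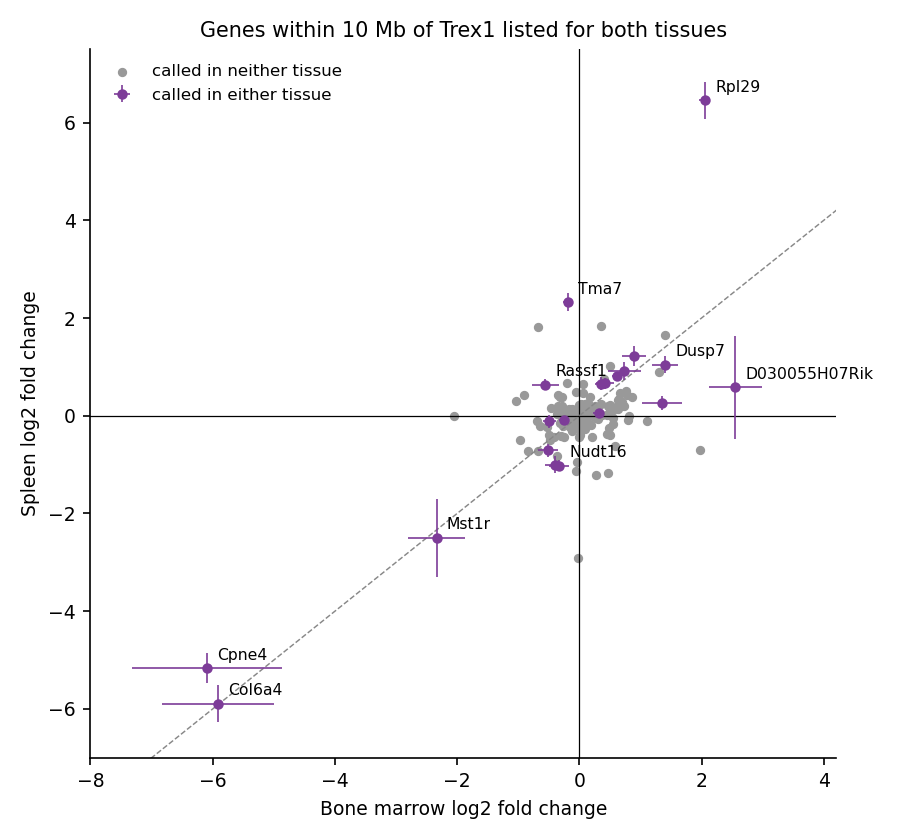
Log2 fold change in spleen (vertical axis) against bone marrow (horizontal axis) for the 183 members listed in both of the authors' deposited tables, Cgas-/- over dKO. Purple points were called in either tissue and carry standard errors, grey points were not called, and the dashed line marks equal values. Col6a4, Cpne4 and Mst1r lie near that line, while Rpl29 and Tma7 lie above it.

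Over all 183 members listed in both tissues, 113 (61.7%) had the same sign, against 51.3% of 13055 genes not placed on chromosome 9. Genes whose symbol was not matched to a position were not removed from that comparison set. Pearson's r across the members was 0.68 and Spearman's rho 0.36, as a description across genes, which share a chromosome and are not independent. In the comparison set r was 0.03 and rho 0.04. Of the 163 members called in neither tissue, 95 (58.3%) had the same sign, with r of 0.15 and rho of 0.23. At a mean of at least 20 in both tissues, genes of the comparison set had the same sign in 51.7%, with r of 0.12 and rho of 0.08. Among the 77 uncalled members at that mean between 5.58 Mb below and 2.21 Mb above Trex1, 41 (53.2%) did, with r of 0.24 and rho of 0.17. Among the 36 members outside that span, 22 (61.1%) did, with r of 0.29 and rho of 0.28.

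At a lower threshold, 17 members had an unadjusted p below 0.05 in both tissues, 14 of them in the same direction. That is 7.65% of the 183, against 0.354% of all genes listed in both tables. Of these 14, Hemk1, a methyltransferase gene 1.72 Mb to the lower side, was the 1 called in neither tissue, at -0.97 ± 0.326 and -0.50 ± 0.170 by the authors' deposited tables, and it is named because its values had been seen. The 3 with opposite directions were Tma7, Rassf1 and Acpp, an acid phosphatase gene also named from its values, at 0.47 ± 0.199 in bone marrow and -1.17 ± 0.374 in spleen by the authors' deposited tables.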

How the data were processed

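The files used were 2 tables, 1 per tissue, of the authors' DESeq2 results. Per the submitters' processing notes, the authors used bcl2fastq 1.8.4, STAR 2.6.1, Partek and DESeq2 with mm10. The counting tool, annotation, strand, gene filter and the version of the authors' DESeq2 are given in no source used here. The mean is the authors' average normalized count, a signal over a comparison's libraries, per the file headers. Per the file headers, log2 values and their standard errors are estimates that the authors fitted. The Wald score and ranking score are the authors', as deposited. The p-value and adjusted p-value are the authors', as deposited. Recomputing showed the Wald score to be the ratio of estimate and error, and the adjusted p the Benjamini-Hochberg value, for all genes of both tables. Depth per library is unknown.

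Symbols were matched to GENCODE M21 (14281 direct, 56 by synonym and 86 unmatched of 14423 in bone marrow, and 21678, 31 and 121 of 21830 in spleen). No test between groups was refitted. The difference between tissues was tested by z from both estimates and errors, two-sided, with Benjamini-Hochberg adjustment over 13853 genes. That step was tested on estimates simulated from a normal distribution with the deposited errors, as the z test itself assumes. The simulation therefore does not show how the test holds for means near 0 or for reads split between near-identical copies. Copies were found with blastn 2.17.0. Calculations used pandas 2.3.3, statsmodels 0.14.6, scipy 1.17.1, matplotlib 3.10.9 and numpy 2.4.6 under Python 3.11.15. Counts cover all members, and 1 result is not reported here. Named are the called members, Trex1 and Cgas, the 5 listed members nearest to Trex1 on each side, and the 2 members of each of 8 function lists with the smallest p. The members, lists and bins were chosen with earlier results of these data known. Alternatives were other thresholds, filters, windows, gene types, binning and centring.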

Additional observations from a re-analysis of the deposited data

Results flagged for a closer look

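In 3 members the change differed between tissues. The spleen minus bone marrow difference in log2 fold change was 2.517 for Tma7, 4.404 for Rpl29 and 1.194 for Rassf1, each past an adjusted p of 0.05 in the z test over all genes listed in both tables. Tma7 and Rassf1 differed in sign between tissues, and their bone marrow values were not called in the authors' deposited table. The tissues also differ in cell types, in the transplant and in how the tables were filtered, and these cannot be told apart.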

How the results depend on the processing

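The 13 members called in bone marrow became 8 with a Bonferroni adjustment and 7 with a fold of at least 2, and the 15 called in spleen became 8 with a fold of at least 2. Other thresholds, the filter at a mean of 20, protein-coding genes alone, windows of 5 and 20 Mb, genes without an overlap on their strand and centring on the median left these counts between 9 and 14 in bone marrow and between 10 and 16 in spleen. The 3 members that differed between tissues numbered 3 under each alternative run. Of 110 values of single called members recomputed with other adjustments, thresholds or centring, 100 kept direction and call, 10 lost the call and 0 reversed. Among those that lost the call were Bfsp2, Gnai2, Lrrfip2 and Ppm1m in bone marrow and Gm37612 in spleen, at an adjusted p of 0.01 or with Bonferroni. The lack of reversals was fixed in advance. Other adjustments and thresholds leave a log2 fold change as it is, and centring subtracted medians of only -0.00287 in bone marrow and 0.00565 in spleen. No paired analysis was possible because the tables hold no value per library, and for the same reason no library could be left out in turn. How far 1 library decides a call was therefore not tested.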
